A study of Homo sapiens with 2 samples.

Results

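The TRAPPC, DENND and TBC1D genes encode regulators of Rab GTPases, the small switches that mark membrane compartments and direct vesicles between them. They were profiled in RNA recovered from immunoprecipitates of 293T cells, which derive from human embryonic kidney and carry the SV40 large T antigen. Members were all genes whose single platform symbol starts with TRAPPC, DENND or TBC1D. These were 67 of the 19775 genes named on the array, namely 16 TRAPPC, 17 DENND and 34 TBC1D genes. The 34 TBC1D entries include the antisense RNAs TBC1D8-AS1 and TBC1D22A-AS1 and the pseudogenes TBC1D27P and TBC1D29P, which matched by name only and were not detected.

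For the miR-941 array, 293T cells had received the synthetic microRNA and their lysate was precipitated with an antibody to Ago2, an Argonaute protein that carries microRNAs to mRNAs. For the control array, 293T cells had received a scrambled oligo, again at 30 nmol/l. Its sample labels conflict, since the title speaks of Ago2 and the antibody field of nonimmune IgG beads. With IgG beads, the oligonucleotide and the antibody would both differ between the arrays and could not be told apart. There is a single array for each condition (1 per group), so no difference below has a replicate check or a test. No array of input RNA was analysed here, so recovery by the beads, mRNA level per cell and the number of cells cannot be told apart.

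A Rab is active when it carries GTP. Exchange factors load it with GTP and GTPase activators return it to the inactive state. TRAPP complexes are assemblies of many subunits that activate Rab1 and Rab11 on the early secretory and recycling routes. DENN domain proteins are mostly large single-chain exchange factors, and different ones can act on the same Rab. TBC domain proteins are the main family of Rab GTPase activators.

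The transfected microRNA is shown because its seed is the part that would pair with target mRNAs. Mature hsa-miR-941 is 23 bases long in RefSeq and the same sequence comes from 5 loci on chromosome 20. The MIR941-1 copy lies at chr20:63919495-63919517 on the plus strand (GRCh38.p14). Capitals mark the seed, bases 2 to 8.
hsa-miR-941: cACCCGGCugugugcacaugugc
Transcript ends of the members were not analysed here, so no seed match is reported for any of them.

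Expression is given as the deposited log2 value of a probe set, and array medians were 0.98 on the miR-941 array and 0.92 on the control array. Each gene takes the values of its brightest probe set and counts as detected where these average more than 0.92. The members were selected on their symbols, and this detection level and the contrast between the arrays, which the class comparison below uses, were measured values behind their choice. By this rule 55 of the 67 members and 13144 of 19775 genes in all were detected. The dimmest detected member was DENND6B, with a mean of 1.26, and the brightest ones left out were TBC1D10C (0.873) and TBC1D27P (0.867). Of 10 genes known to be expressed by the line from which 293T derives, 9 were detected, KRT8 being the exception, with VIM at 8.70 on the miR-941 array and 8.82 on the control array. Of 13 markers of other cell types, 7 passed the level, and over all 13 the values ran from 0.33 to 7.54 on the miR-941 array and from 0.38 to 6.95 on the control array. HBB gave both of these maxima. The mean over those 13 was 1.47 on the miR-941 array and 1.37 on the control array, and the leukocyte marker PTPRC read 0.33 and 0.54. The part of such RNA in the results below was not tested.

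The classes lay on different sides of 0. Every difference below is on the log2 scale, the miR-941 value minus the control value. Of the 15 detected TRAPPC genes, 12 had a higher miR-941 value and 3 a lower one, and the class median was 0.26. Over all detected genes, the share with a higher value was 46.3%, that with a lower value 42.4% and that with equal values 11.3%, and the median was 0.00. DENND genes were higher for 1 of 14, lower for 11 and equal for 2, with a median of -0.21. TBC1D genes were higher for 7 of 26, lower for 17 and equal for 2, with a median of -0.16. Together, DENND and TBC1D genes were lower for 28 of 40. The genes were chosen by this contrast, so these counts are a description and carry no test.

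The differences were small. None of the 55 detected members differed by 2-fold on its brightest probe set, where 0.510% of all detected genes did. Past 1.5-fold there were 4 members (5.79% of all detected genes), which are TRAPPC13 and TBC1D19 on the higher side and DENND2B and TBC1D24 on the lower side. The interquartile range of TRAPPC differences ran from 0.10 to 0.33. That of DENND ran from -0.33 to -0.05, that of TBC1D from -0.24 to 0.02, and that of all detected genes from -0.19 to 0.21. Replicate error is unknown, but a gene's 2 brightest probe sets can be set against each other, and their differences had a pooled SD of 0.28 over 33 members and 0.29 over 6102 genes in all. This spread applies to single genes and holds no variation between cultures.

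**Figure D1:**
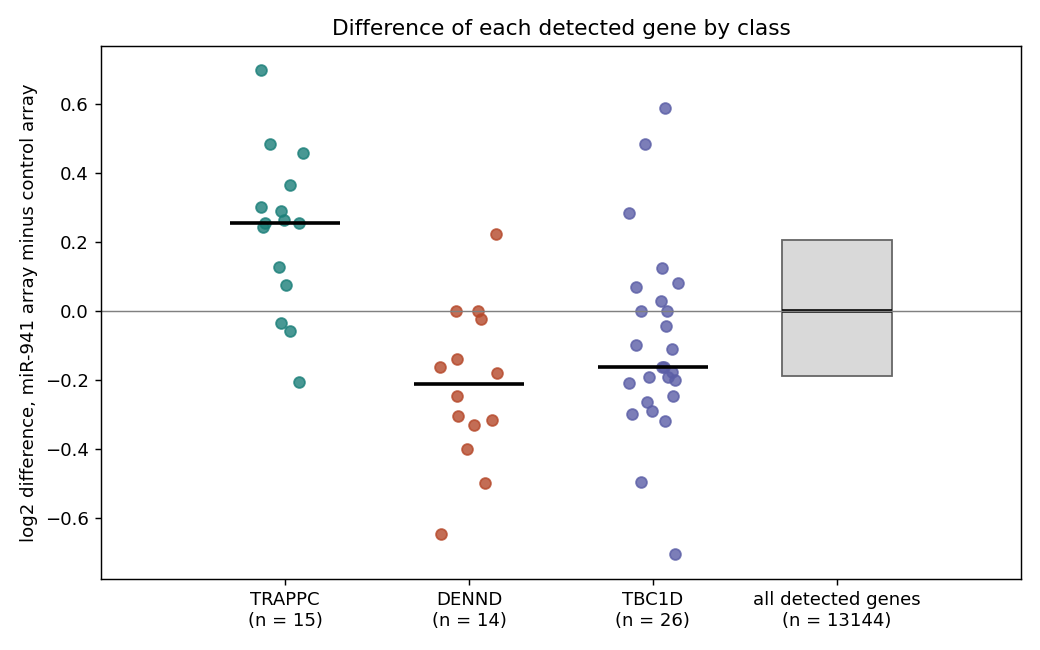
Log2 difference (miR-941 array minus control array) of the brightest probe set of each detected gene. Each point is a gene, black lines are medians, and the grey box spans the interquartile range of all 13144 detected genes; TRAPPC genes lie mostly above 0 (12 of 15) and DENND genes mostly at or below it (13 of 14).

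Levels of different probe sets depend on the probes as well as on the RNA, so they are given only to place the classes in the array's range. The median over genes of the mean log2 level was 4.76 for TRAPPC, 5.25 for DENND and 5.12 for TBC1D. Of all detected genes with a level inside the members' interquartile range (3.63 to 6.16), 44.7% were higher and 47.4% lower, with a median of 0.00.

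On brightest probe sets, the shared core of the TRAPP complexes was higher for 7 of its 8 detected genes, where 46.3% of all detected genes were. Among these small subunits are those that form the site acting on Rab1. The median over the 8 genes was 0.26. TRAPPC4 read 7.50 on the miR-941 array and 7.25 on the control array, a difference of 0.25, and it was the brightest of the class. A further probe set had 0.28, and the other, at 1.00 on both arrays, was near the detection level. TRAPPC2L read 7.27 on the miR-941 array and 6.98 on the control array, a difference of 0.29. Its 3 detected probe sets were all higher, with 0.29, 0.11 and 0.05. TRAPPC3, a subunit that carries a fatty acid, read 5.71 on the miR-941 array and 5.44 on the control array. Both of its probe sets were higher, by 0.26 and 0.29. TRAPPC2, the gene of the skeletal disorder spondyloepiphyseal dysplasia tarda, read 5.30 on the miR-941 array and 4.94 on the control array (0.36). The differences of these 4 genes lay between 0.25 and 0.36.

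The remaining core genes had 1 detected probe set each. TRAPPC6B read 2.71 on the miR-941 array and 2.25 on the control array, a difference of 0.46. Its paralog TRAPPC6A had a mean level of 2.88 over both arrays and a difference of 0.26. TRAPPC5 read 6.47 on the miR-941 array and 6.34 on the control array (0.13). TRAPPC1 was the exception of the core, with 3.60 on the miR-941 array, 3.66 on the control array and a difference of -0.06. TRAPPC3L, a paralog of TRAPPC3, was not detected, at 0.28 and 0.09.

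Subunits found in only one form of the complex were mixed. TRAPPC9 and TRAPPC10 are large subunits of TRAPPII, the form linked to Rab11, and TRAPPC14 is a further partner of that form. TRAPPC10 read 3.93 on the miR-941 array and 3.63 on the control array (0.30), and TRAPPC14 had 0.07. TRAPPC9, mutated in an inherited intellectual disability, read 3.82 and 3.33 on its brightest probe set, a difference of 0.48. Its other 3 probe sets had 0.24, -0.26 and -0.52, so that its median over 4 probe sets was -0.01.

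The subunits of TRAPPIII, the form linked to autophagy, included both the highest and the lowest gene of the class. TRAPPC13 read 3.29 on the miR-941 array and 2.59 on the control array, a difference of 0.70. That probe set carries the suffix _x_at, which marks probes that may bind other transcripts. Its other detected probe set read 2.28 on both arrays. TRAPPC11 had 0.24 on its brightest probe set and 0.00 on the other. TRAPPC12 had -0.03, while its dimmer probe set had 0.44. TRAPPC8, whose yeast counterpart brings the complex to membranes, read 6.67 on the miR-941 array and 6.88 on the control array on its only probe set, a difference of -0.21.

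**Figure D2:**
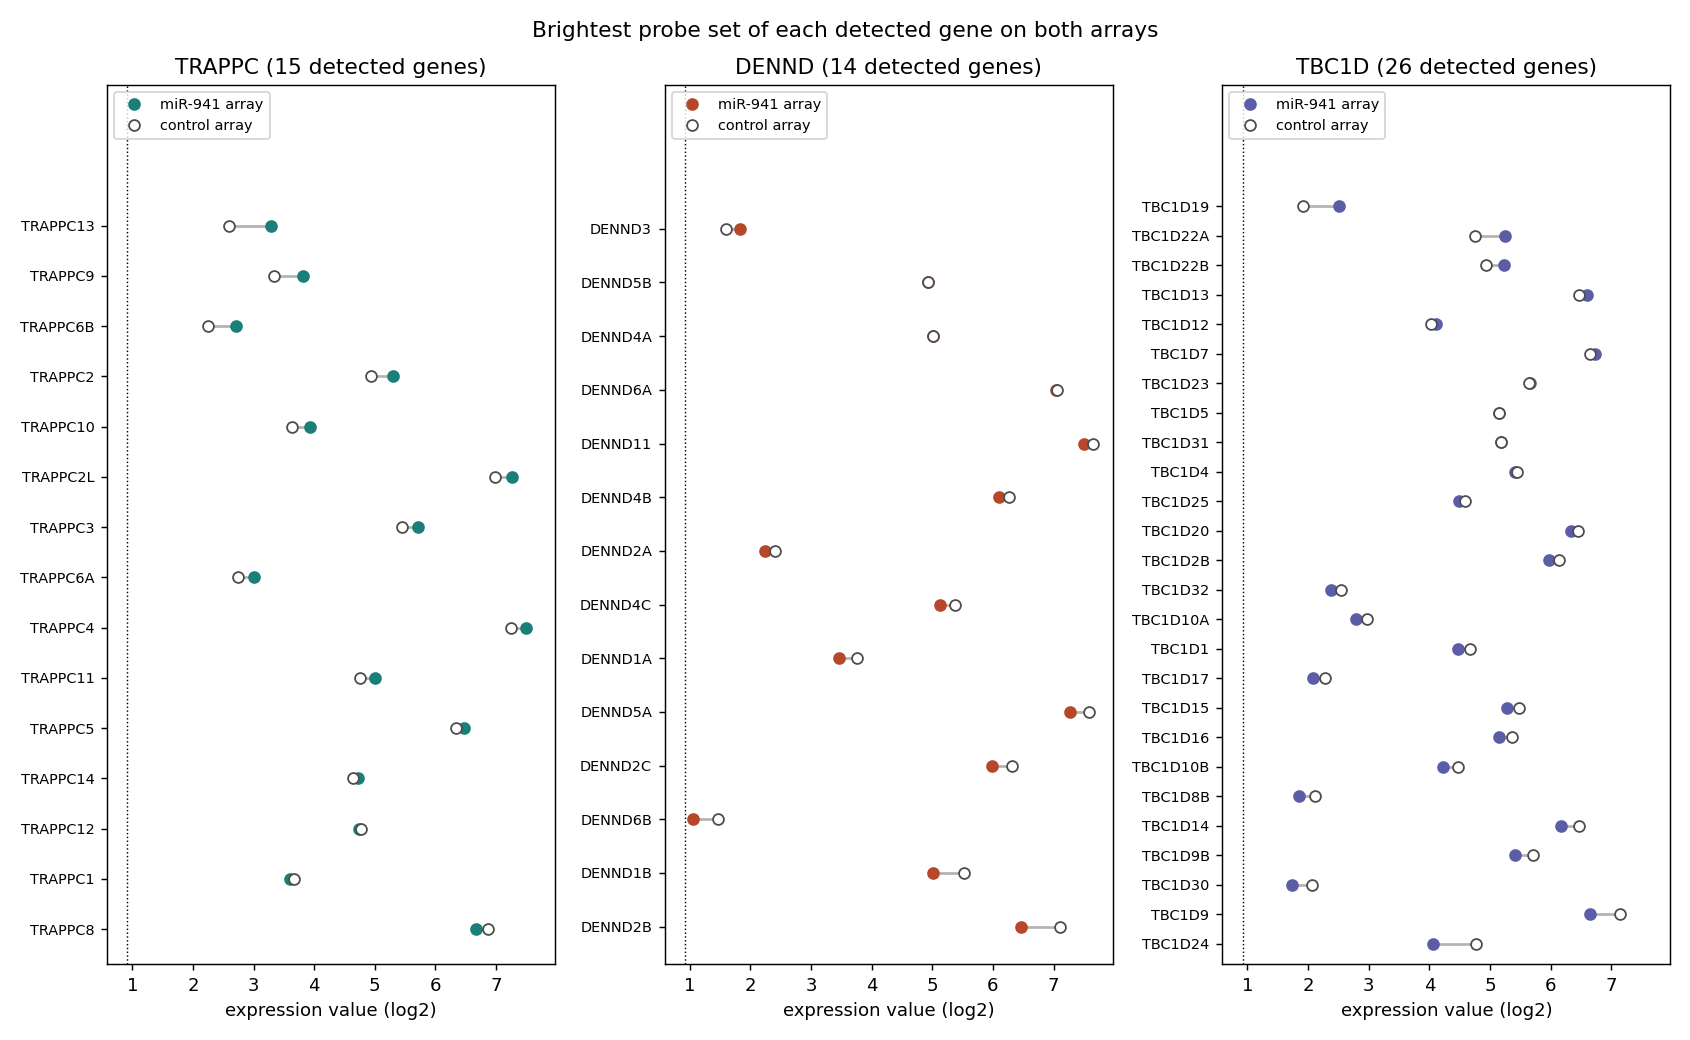
Expression value (log2, horizontal axis) of the brightest probe set of each detected gene on the miR-941 array (filled) and the control array (open), by class and ordered by difference; the dotted line is the detection level of 0.92. Most filled points lie right of the open ones in the TRAPPC panel and left of them in the DENND panel, with DENND2B at 6.46 and 7.10.

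Among DENND genes, all 5 detected members of the DENND1 and DENND2 groups were lower on their brightest probe sets, with a median of -0.33. Of all detected genes, 42.4% were lower. DENND2B, an exchange factor for Rab13 at cell edges, read 6.46 on the miR-941 array and 7.10 on the control array, a difference of -0.65 on its only probe set. DENND1B, an exchange factor for Rab35 that binds the clathrin machinery, read 5.02 on the miR-941 array and 5.51 on the control array (-0.50). Its other detected probe sets had -0.71 and -0.47, and it was the only DENND gene with every one of 2 or more detected probe sets lower. DENND2C had -0.33 on its brightest probe set, while its dimmer one read 1.78 on both arrays. DENND1A, also an exchange factor for Rab35, had -0.30 and 0.29 on a pair of probe sets of like brightness, with a median of -0.01. DENND2A had -0.18.

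The DENND4 and DENND5 groups were closer to 0, with a median of -0.16 over 5 genes. DENND5A, a partner of Rab6 and Rab39, read 7.27 on the miR-941 array and 7.59 on the control array on its only probe set (-0.32). DENND5B read 4.92 on both arrays, with 0.14 and -0.38 on its other detected probe sets. DENND4C, which activates Rab10 on the vesicles of the insulin-responsive glucose transporter, had -0.25 on its brightest probe set and 0.18 on the other. DENND4B had -0.16, and DENND4A read 5.01 on both arrays.

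The remaining DENND genes held the only higher member. DENND3, an exchange factor for Rab12, read 1.82 on the miR-941 array and 1.60 on the control array (0.22), a dim value. Its other detected probe set was equal on both arrays. DENND6A, which acts on Rab14, read 7.03 on the miR-941 array and 7.06 on the control array, a difference of -0.02. Its paralog DENND6B had -0.40, but read only 1.06 on the miR-941 array and 1.46 on the control array. DENND11, the brightest of the class at 7.50 and 7.64, had -0.14, with 0.00 and 0.48 on dimmer probe sets. DENND1C, DENND2D and DENND10 were not detected on the probe sets that name them alone.

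The 26 TBC1D genes ran from -0.71 to 0.59. TBC1D24, which acts at synapses and binds phosphoinositides, read 4.07 on the miR-941 array and 4.77 on the control array (-0.71), the lowest difference of all detected members. Its other probe set read 3.43 on both arrays, so the pair has a median of -0.35. TBC1D9 read 6.66 on the miR-941 array and 7.15 on the control array (-0.50), and its second detected probe set had 2.17 and 3.29 (-1.13). Its paralog TBC1D9B, an activator of Rab11 GTP hydrolysis, read 5.41 on the miR-941 array and 5.71 on the control array (-0.30). All 4 of its probe sets were lower, from -0.53 to -0.18, although they carry the suffixes _x_at and _s_at. Both paralogs were thus lower on every detected probe set. TBC1D30, linked to Rab8 and cilia, had -0.32 on its brightest probe set, which read only 1.74 on the miR-941 array and 2.06 on the control array. Its other detected probe sets had -0.11 and 0.23, and its median was -0.11.

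On the higher side stood TBC1D19 and the TBC1D22 pair. TBC1D19 read 2.50 on the miR-941 array and 1.92 on the control array on its only probe set (0.59). TBC1D22A read 5.25 on the miR-941 array and 4.76 on the control array (0.48), but its other detected probe sets had -0.03 and -1.72, and its median was -0.03. The last of these read 0.87 on the miR-941 array, which is under the detection level, and 2.59 on the control array. TBC1D22B, its Golgi paralog, read 5.23 on the miR-941 array and 4.94 on the control array (0.29). TBC1D13, an activator for Rab35, had 0.12 on the brightest probe set and -0.06 on the other.

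TBC1D4 and TBC1D1 restrain the Rabs of the glucose transporter until insulin or contraction releases them. TBC1D4 had -0.04 and -0.46 on its probe sets, and TBC1D1 had -0.19 and -0.40, so both genes were lower on each. TBC1D15, an activator for Rab7, had -0.20 and 0.39. TBC1D5, which acts on Rab7 with retromer, read 5.15 on both arrays on its brightest probe set. Its other detected probe sets had 0.15, at like brightness, and 0.00. TBC1D14, a regulator of starvation-induced autophagy, read 6.17 on the miR-941 array and 6.46 on the control array (-0.29). TBC1D25, which acts on Rab33B in autophagosome formation, was lower on both probe sets (-0.10 and -0.15).

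The TBC1D genes not yet named lay between -0.26 and 0.08. TBC1D20, the activator for Rab1 that opposes TRAPP, had -0.11 on its brightest probe set and 0.24 on the other. TBC1D7, a subunit of the tuberous sclerosis complex, had 0.07. TBC1D23, which tethers vesicles at the trans-Golgi network, had 0.03. The ciliary genes TBC1D31 and TBC1D32 had 0.00 and -0.16, and TBC1D32 was lower on both probe sets. TBC1D10A and TBC1D10B, activators for Rab27 and Rab35, had -0.18 and -0.25. TBC1D8B had -0.26 on its brightest probe set and 0.87 on the other, with a median of 0.30. That other probe set read 1.48 on the miR-941 array and 0.61 on the control array. The control value is under the detection level, so the 0.87 and the median are not firm. TBC1D16 and TBC1D2B had -0.21 and -0.16 on the brightest probe set and a median of 0.00 each. TBC1D17 had -0.19 and TBC1D12 0.08 on single detected probe sets.

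Agreement between probe sets of a gene was partial. Of the 33 members measured by at least 2 detected probe sets, 2 had all of them higher (TRAPPC2L and TRAPPC3) and 7 all lower (DENND1B, TBC1D1, TBC1D4, TBC1D9, TBC1D9B, TBC1D25 and TBC1D32). Over all 6102 such genes, 16.5% had all higher and 17.1% all lower. Probe sets on both sides of 0 were found in 14 of the 33, against 46.3% of such genes in all. Of the 104 detected member probe sets, 3 differed by 2-fold or more (0.841% of all detected probe sets with 1 symbol), which belong to TBC1D9, TBC1D16 and TBC1D22A. The probe sets other than the brightest were dimmer, with a median level of 2.52. Their median difference was 0.05 for 11 TRAPPC, 0.00 for 12 DENND and -0.04 for 26 TBC1D probe sets. With differences averaged over the probe sets of a gene, 12 of 15 TRAPPC genes were higher, although these are not the same 12: TRAPPC9 was then lower and TRAPPC12 higher. The DENND median was then -0.08 (11 of 14 lower, 2 higher) and the TBC1D median -0.05 (14 of 26 lower, 12 higher). No share over all detected genes is given for averaged differences.

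**Figure D3:**
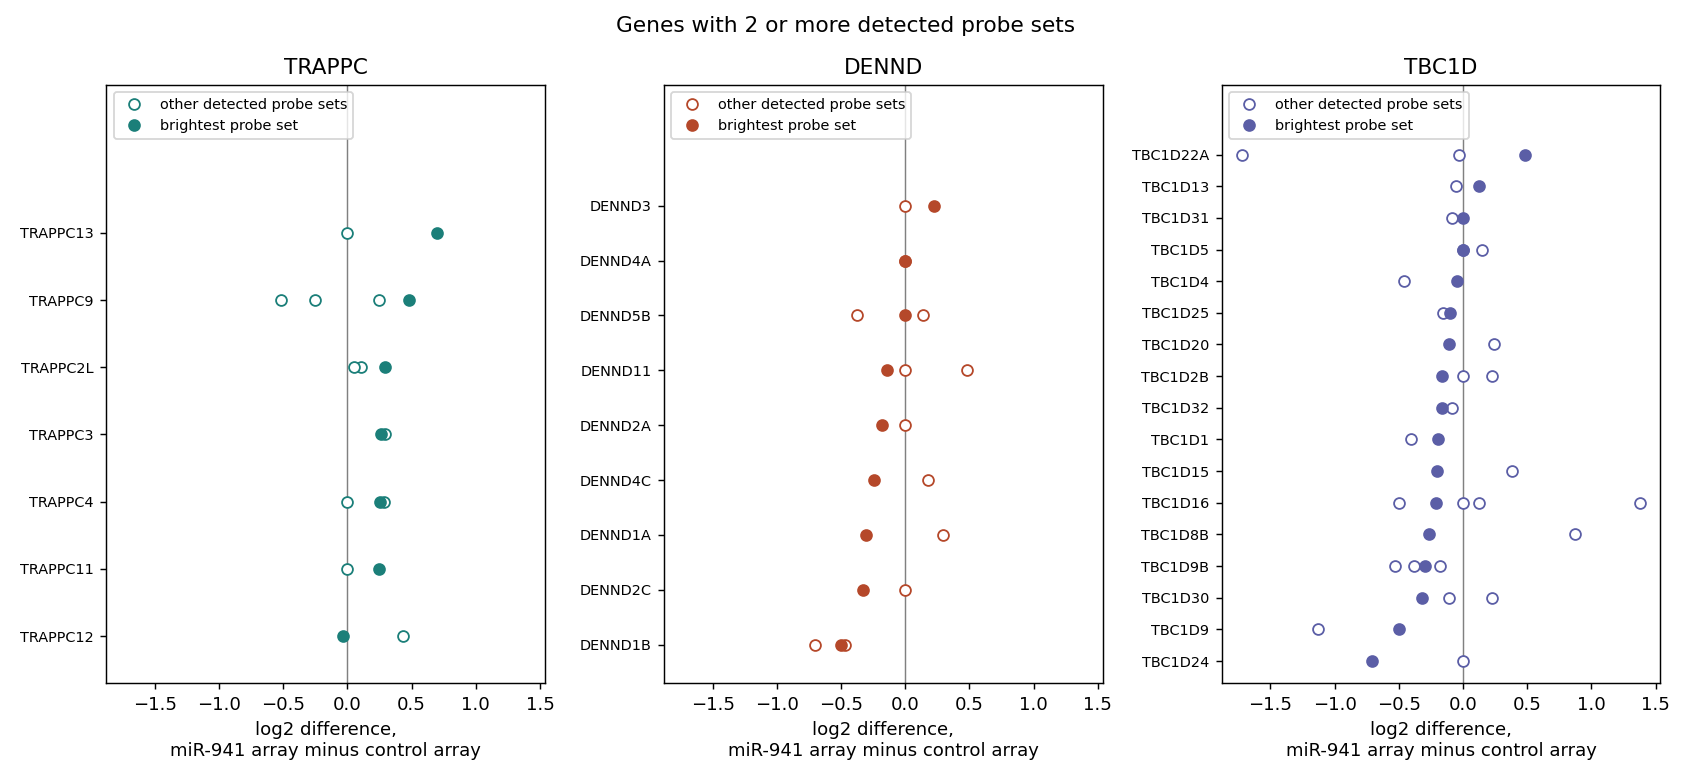
Log2 difference (miR-941 array minus control array) of every detected probe set of the 33 genes with 2 or more, with the brightest probe set filled and the others open. TBC1D9B and DENND1B keep all their points below 0, while TRAPPC9, TBC1D16 and TBC1D22A have points on both sides.

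The classes also differ in gene size. TRAPPC genes had a median span of 22.4 kb in RefSeq (GRCh38.p14), DENND genes 125 kb and TBC1D genes 83.6 kb, against 28.8 kb over all detected genes. Across genes, the difference correlated with the log10 span at Pearson's r = -0.10 over 13132 detected genes and at r = -0.12 over the 55 members (Spearman's rho = -0.10 and -0.20). Genes share 1 hybridisation per array and are not independent replicates. Within classes the sign varied: r was 0.23 over 15 TRAPPC, -0.23 over 14 DENND and 0.32 over 26 TBC1D genes. All detected genes were split by span into 4 bins of equal size. In the bin of the longest genes (71.6 kb and more) 39.9% were higher and 50.2% lower, with a median of -0.01. In that bin 2 of 4 TRAPPC genes were higher and 2 lower (median 0.13), while 7 of 9 DENND genes (median -0.30) and 10 of 16 TBC1D genes (median -0.16) were lower. In the bin from 28.8 to 71.6 kb, where 47.0% of all detected genes were higher and 42.7% lower, 2 of 2 TRAPPC genes were higher (median 0.47), and 2 of 3 DENND and 3 of 4 TBC1D genes were lower (medians -0.02 and -0.24). In the bin from 11.0 to 28.8 kb, where 47.7% were higher and 40.9% lower, 4 of 4 TRAPPC genes were higher (median 0.31), and 2 of 2 DENND and 4 of 6 TBC1D genes were lower (medians -0.28 and -0.10). The bin of the shortest genes held 5 TRAPPC genes, 4 of them higher, and no gene of the other classes. The array's actin mRNA controls differed by -0.66 at the 5' end, -0.37 in the middle and -0.04 at the 3' end, and those of GAPDH by -0.19 (5' end) and 0.05 (3' end). The part of transcript length or RNA quality in the class differences was not tested.

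**Figure D4:**
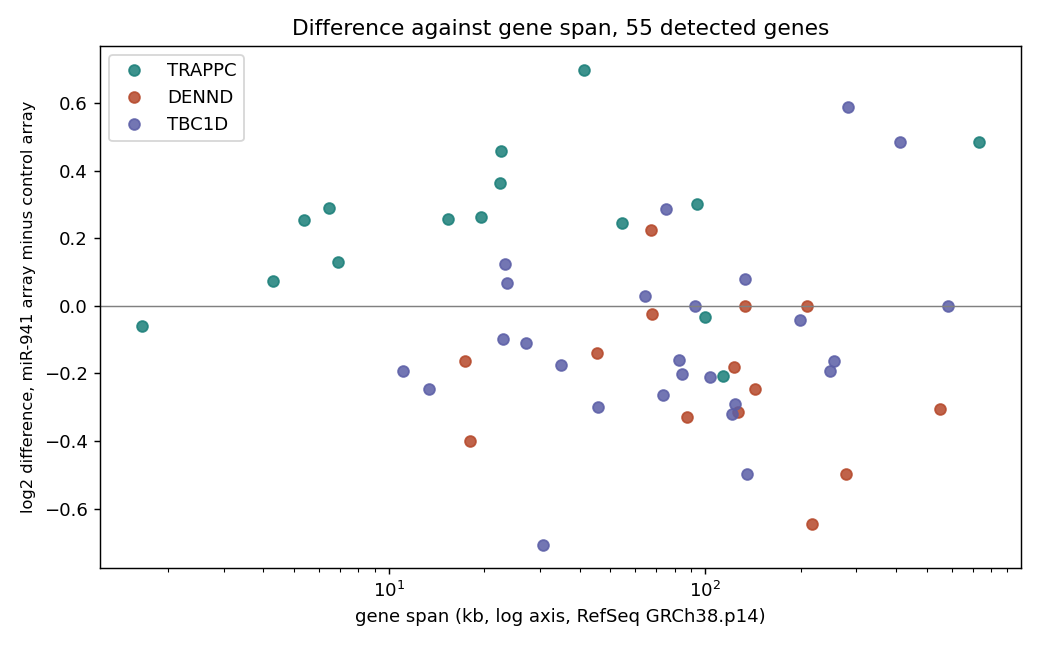
Log2 difference (miR-941 array minus control array) against gene span in kb (log axis) for the 55 detected members, 1 point per gene, coloured by class. TRAPPC genes reach from 1.66 to 731 kb, and DENND genes from 17.4 to 550.5 kb.

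Promoters were read because the TRAPPC genes lay together. RefSeq promoters were matched for 12 of 15 detected TRAPPC, 13 of 14 DENND and 20 of 26 TBC1D genes, and the 250 bases before the start were searched on both strands, with matches of different motifs allowed to overlap. A gene counts where any of its promoters matches, so shares of all promoters, here and below, are not in the same unit as gene counts. The ETS core CCGGAAG was found in 5 of 12 TRAPPC, 2 of 13 DENND and 3 of 20 TBC1D genes, against 17.8% of 10642 detected genes. Counted per promoter, it was in 5 of 14 TRAPPC, 2 of 23 DENND and 3 of 30 TBC1D promoters. That share was 13.1% over promoters of detected genes and 8.52% over all 35116 promoters. The GC box GGGCGG was found in 10 of 12, 12 of 13 and 14 of 20 genes of these classes, against 73.5% of detected genes and 42.6% of all promoters. CCAAT was found in 4, 3 and 5 genes of the same classes (41.3% and 32.0%). TATAAA (8.12% and 10.7%) was found in 1 TBC1D gene and in no TRAPPC or DENND gene. A match describes these letters only.

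The TRAPPC matches to the ETS core are shown with up to 20 bases on either side, so that their surroundings can be compared. Each is written 5′ to 3′ along the gene's strand, with the match in capitals (CTTCCGG is the same motif on the opposite strand). They lie at chr5:65624979-65625025 (TRAPPC13, plus strand), chr14:39170384-39170430 (TRAPPC6B, minus), chr16:88856919-88856965 (TRAPPC2L, plus) and chr17:7931951-7931997 (TRAPPC1, minus). TRAPPC2 has a match at chrX:13734639-13734685 and another at chrX:13734714-13734760, both on its minus strand (all GRCh38.p14).
TRAPPC13: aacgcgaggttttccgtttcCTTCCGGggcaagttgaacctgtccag
TRAPPC6B: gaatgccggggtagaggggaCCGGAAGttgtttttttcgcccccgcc
TRAPPC2L: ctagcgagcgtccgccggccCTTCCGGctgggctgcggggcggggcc
TRAPPC1: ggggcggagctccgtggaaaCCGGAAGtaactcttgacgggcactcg
TRAPPC2, nearer the start: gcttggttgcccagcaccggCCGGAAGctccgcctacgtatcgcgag
TRAPPC2, farther from the start: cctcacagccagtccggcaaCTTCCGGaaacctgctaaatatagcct
Of these genes TRAPPC13, TRAPPC6B, TRAPPC2 and TRAPPC2L had higher miR-941 values (0.70, 0.46, 0.36 and 0.29), and TRAPPC1 had a lower one (-0.06). The searched TRAPPC genes without a match were mostly higher as well. TRAPPC10, TRAPPC3, TRAPPC6A, TRAPPC4, TRAPPC11 and TRAPPC5 had 0.30, 0.26, 0.26, 0.25, 0.24 and 0.13, and TRAPPC12 had -0.03. A link between the motif and the difference was not tested.

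The other genes of the Rab cycle lay on both sides of 0, the Rab effectors mostly below it. Of 116 genes on the array in 6 further lists, 105 were detected, with a median of -0.03. Of these, 40 were higher (38.1%) and 56 lower (53.3%), against 46.3% and 42.4% of all detected genes. None was past 2-fold, where 0.510% of all detected genes were. The 47 detected Rab GTPases had a median of -0.03, with 19 higher and 24 lower. RAB26 was the highest at 0.73, reading 1.64 on the miR-941 array and 0.90 on the control array, the second of which is under the detection level. RAB43 was the lowest at -0.46, reading 1.03 and 1.49. RAB1A, the substrate of TRAPP, read 9.38 on the miR-941 array and 9.36 on the control array (0.02), and RAB11A read 9.21 and 8.97 (0.24). RAB35, the substrate of DENND1A and DENND1B, had -0.21, and RAB13, that of DENND2B, had -0.04.

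Exchange factors, activators and effectors outside the 3 classes were described in the same way, beside 46.3% higher and 42.4% lower over all detected genes. The 14 other exchange factors had a median of 0.05, with 7 higher and 6 lower, from HPS4 (-0.33) to RABGEF1 (0.60), an exchange factor for Rab5. The 11 other activators had a median of 0.04, with 6 higher and 4 lower, from EVI5 (-0.23) to SGSM1 (0.44). SGSM1 read 1.21 on the miR-941 array and 0.78 on the control array, which is under the detection level, so its size and rank are not firm. The 9 DENN proteins under other names had a median of -0.11, with 3 higher and 5 lower, from FNIP2 (-0.44), a partner of folliculin, to C9orf72 (0.27). Delivery and prenylation genes had a median of 0.06 over 5 genes, from the Rab escort protein gene CHML (-0.55) to RABGGTA (0.52), which encodes a subunit of the enzyme that adds the lipid anchor. Rab effectors were lower for 15 of 19 genes (78.9%) and higher for 2, with a median of -0.12. They ran from RABEP2 (-0.54), which binds Rab5, to PLEKHM1 (0.13), a Rab7 effector.

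**Figure D5:**
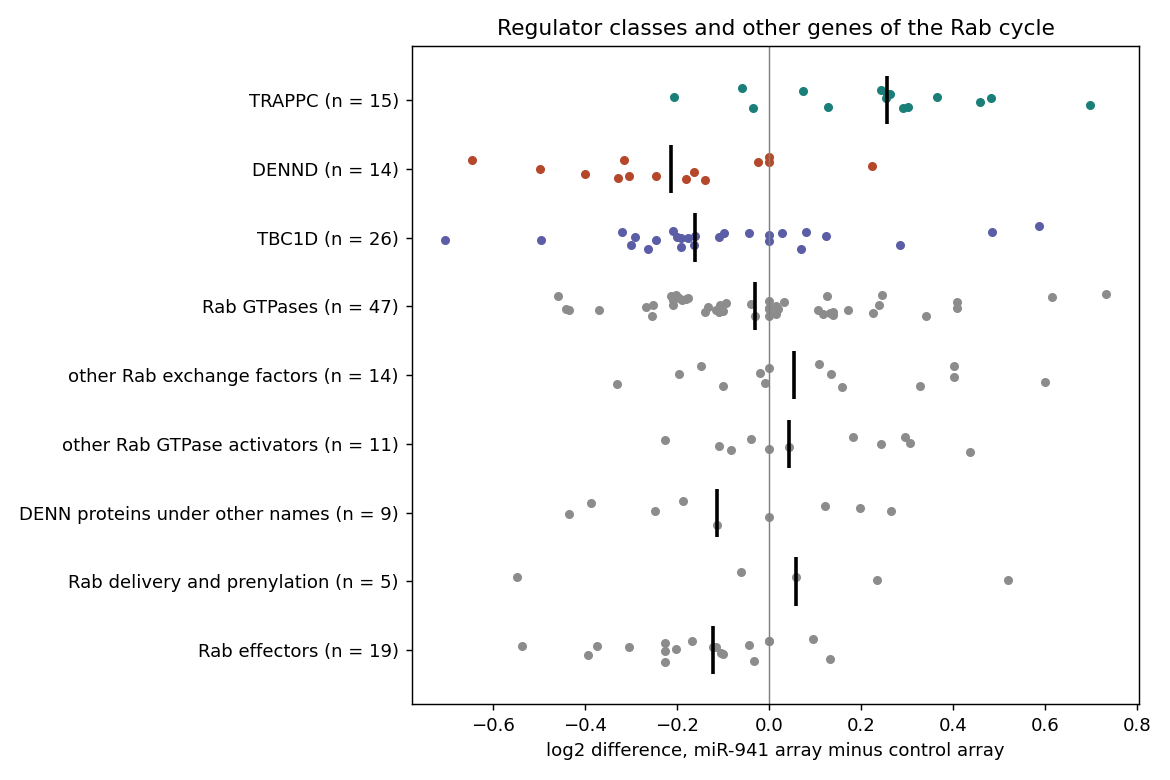
Log2 difference (miR-941 array minus control array) of each detected gene in the 3 regulator classes and in 6 further lists of the Rab cycle, 1 point per gene, with the median as a black line. On these brightest probe sets the TRAPPC median is 0.26, the DENND median -0.21 and the median of the Rab effectors -0.12; with differences averaged over probe sets the effectors (-0.14) lie below the DENND genes (-0.08).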

How the data were processed

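RNA from 1 precipitate per group was measured on 1 Affymetrix U133 Plus array each. The authors made the deposited log2 values, 1 for every probe set, with the RMA package in R, according to the design text. The submitters' processing notes also list affy and MAS5, with no version or role. That the scale is log2 was read from the range, which reaches 13.7; no source used here states it or any centring. Of 54675 probe sets, the 41091 with exactly 1 platform symbol were used, and all 67 member symbols match RefSeq (GRCh38.p14). Promoter and microRNA sequences are from RefSeq. Groups follow the transfected oligonucleotide. With 1 array per group there was no test, and the number of arrays limits the precision.

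Members and lists were chosen with earlier results of these data known. Chosen for closer description were the 4 highest and 4 lowest genes of each class and members past 2-fold. So were members whose 3 or more detected probe sets lay on the same side of 0, and of the other lists the highest and lowest gene. Not every array value and dimmer probe set of these genes is printed. RAB1A, RAB11A, RAB13 and RAB35 were added as substrates. Alternatives changed how probe sets were combined or filtered, the floor and the scaling. The code was checked by adding known shifts to real differences that had been shuffled among genes of like level. The median must then rise by the shift, so this check says nothing about the classes. Python 3.11.15, pandas 2.3.3 and statsmodels 0.14.6 were used.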

Additional observations from a re-analysis of the deposited data

Results flagged for a closer look

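One probe set of TBC1D16, not the brightest and so not used for its gene value, differed by more than 2-fold, with the higher value on the miR-941 array. It read 2.84 on the miR-941 array and 1.46 on the control array, a log2 difference of 1.38. The other 4 TBC1D16 probe sets had differences of -0.50, -0.21, 0.00 and 0.13, and the median over all 5 was 0.00. Among all detected probe sets with 1 symbol, 0.841% differed by 2-fold or more in either direction, and 3 of the 104 detected member probe sets did. The other 2 were lower and belong to TBC1D9 and TBC1D22A.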

How the results depend on the processing

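No paired analysis was possible because there is a single array for each condition, which also allows no array to be dropped. A median that moved by under 0.1 on the log2 scale was taken as unmoved. The TRAPPC median stayed between 0.18 and 0.28 over 10 alternatives, but not all of these could move it. Current symbols, the floor at 0.92 and subtracting the all-gene median of 0.00 could not, and each gave 0.256. All member symbols were already current, and no detected member read under the floor on its brightest probe set. The value with genes whose 2 or more probe sets lay on the same side of 0 rests on 2 TRAPPC genes. The DENND median moved to -0.0849 with the mean and -0.0629 with the median over probe sets, and to -0.4991 with genes whose 2 or more probe sets lay on the same side of 0, which left 1 gene; that restriction was chosen after seeing the data. The TBC1D median moved to -0.0548 with the mean and -0.0377 with the median over probe sets, and was -0.1036 above the 75th percentile of level and -0.0831 without _x_at and _s_at probe sets. The cause was not tested. No member was past 2-fold under the other alternatives, and 4 were past 1.5-fold. Without _x_at and _s_at probe sets, 8 TRAPPC genes had a value, 6 higher and 1 lower. The median of the 6 Rab lists together kept its sign throughout (-0.10 to -0.03). Single lists changed sign: other activators (-0.0099) and delivery and prenylation (-0.0012) without _x_at and _s_at probe sets, other exchange factors (-0.0051) and delivery and prenylation (-0.0012) above the 75th percentile of level. Under the restriction to probe sets on the same side of 0 the values were 0.1393 for Rab GTPases, -0.0602 for other exchange factors, -0.0837 for other activators, -0.4116 for DENN proteins under other names (0.0000 with the median over probe sets) and -0.3048 for delivery and prenylation.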

Other observations

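Besides the probe sets that name a member alone, 10 pair a member symbol with another gene and took no part in the class values. Of these, 9 were above the detection level, 4 with a higher and 5 with a lower value on the miR-941 array, with differences from -0.64 to 0.71. Which gene they measure was not tested.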
